A study of Homo sapiens with 9 samples.

Results

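The open chromatin of control SK-N-MC cells was described from the 85359 accessible regions kept in the control group's deposited list, of 85775 listed on chromosomes 1 to 22 and X. SK-N-MC is an established Ewing sarcoma line whose defining lesion is the fusion gene EWSR1::FLI1. Regions with a negative second authors' value or wider than 20 kb were left out, which removed 416. The control cells, whose genotype label is wild type, carried a doxycycline-inducible non-targeting short hairpin RNA (shScramble) and were grown for 48 h with 100 ng/ml doxycycline, which all groups of the study received. The study's other groups, in which hairpins silenced CHD4, are not analysed here. Each group had 3 biological replicates by its labels, and ATAC-seq cut and tagged open DNA with the Tn5 transposase after Drosophila S2 cells had been added to each sample as a spike-in. The control group has 1 list, filed under replicate 1 and treated here as the group's combined list, which is an inference. No spread between replicates could be computed and no difference was tested. The list holds no read counts, so depth is unknown, and a locus without a region is one where none was listed, which does not show that it is closed.

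EWSR1::FLI1 joins part of the RNA-binding protein EWSR1 to the DNA-binding domain of FLI1, a member of the ETS family of transcription factors. ETS factors bind a short motif around GGAA, common in the promoters of genes that every cell uses, and the fusion also binds repeats of GGAA far from genes, where it opens chromatin. Promoters rich in the dinucleotide CG are open in most cell types, whereas promoters of tissue-specific genes are often poor in CG and open only in their own lineage.

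Promoter sequences touched by a region held more CG than the others in the median, with exceptions given below. The examples were chosen after their values were seen. The promoters here are RefSeq windows on GRCh38.p14, from 250 bases before a gene's start to 50 after it, and the bases before the start are printed 5′ to 3′ with every CG in capitals. The first pair was touched by a region. PGK1, a glycolytic enzyme gene, had 32 CG in 250 bases under a region at place 11 of the list, which is sorted by the authors' p. NR0B1, a nuclear receptor gene that the fusion activates, had 22.
PGK1 (chrX:78103998-78104247, plus strand): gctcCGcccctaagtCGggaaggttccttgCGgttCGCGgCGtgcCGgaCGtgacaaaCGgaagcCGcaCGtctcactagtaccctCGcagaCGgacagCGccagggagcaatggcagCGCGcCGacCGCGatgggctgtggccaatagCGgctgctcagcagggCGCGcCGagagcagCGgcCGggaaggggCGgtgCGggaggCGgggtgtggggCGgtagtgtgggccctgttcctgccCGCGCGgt
NR0B1 (chrX:30309391-30309640, minus strand): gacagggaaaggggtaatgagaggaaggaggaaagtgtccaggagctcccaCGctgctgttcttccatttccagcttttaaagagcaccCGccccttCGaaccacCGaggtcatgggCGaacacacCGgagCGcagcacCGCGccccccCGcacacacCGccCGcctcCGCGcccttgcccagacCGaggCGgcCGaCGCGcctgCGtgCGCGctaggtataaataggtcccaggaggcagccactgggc
The next 3 had no region anywhere in their loci or at their promoters. ALB, which encodes liver albumin, had 3 CG, and GATA1 (the erythroid factor) and NANOG (a pluripotency factor) had 4 each.
ALB (chr4:73404037-73404286, plus strand): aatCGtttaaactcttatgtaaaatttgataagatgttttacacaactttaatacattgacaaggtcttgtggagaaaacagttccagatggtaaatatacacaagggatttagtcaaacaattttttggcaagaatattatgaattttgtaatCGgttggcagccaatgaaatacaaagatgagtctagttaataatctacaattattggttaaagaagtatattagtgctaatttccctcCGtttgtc
GATA1 (chrX:48786340-48786589, plus strand): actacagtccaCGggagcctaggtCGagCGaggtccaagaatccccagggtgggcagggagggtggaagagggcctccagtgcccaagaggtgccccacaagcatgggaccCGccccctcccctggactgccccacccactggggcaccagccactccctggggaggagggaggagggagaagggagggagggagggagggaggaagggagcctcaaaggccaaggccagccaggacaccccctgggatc
NANOG (chr12:7789152-7789401, plus strand): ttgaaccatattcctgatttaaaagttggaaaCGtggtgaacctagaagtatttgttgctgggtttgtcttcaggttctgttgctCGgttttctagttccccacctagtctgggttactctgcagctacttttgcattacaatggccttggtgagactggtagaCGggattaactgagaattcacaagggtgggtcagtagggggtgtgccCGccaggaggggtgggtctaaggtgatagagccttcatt
RefSeq supplied 22012 such windows for 15812 protein-coding genes. A region touched 10488 of them, 47.6%. Touched windows held a median of 25 CG and the others 12. In the touched windows the CpG ratio, which is the number of CG over that expected from the C and G content, had a median of 0.821 and in the others 0.527. The median GC content was 64% and 60%. Single windows departed from these medians. An NKX2-2 window with 22 CG in the 250 bases before the start was not touched. A WDR74 window with 8 was touched by the region at place 15.

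The ETS core CCGGAAG, searched on both strands, was found in a minority of promoters, more often in touched ones. It was absent from the PGK1 bases above. The 4 promoters below are the first in row order that carry the core within 100 bases of the start and overlap no annotated gene, shown over those 100 bases with the core in capitals. AHSG encodes a liver plasma protein, ATF6B a factor of the unfolded protein response, PPME1 a phosphatase methylesterase and EDEM3 a mannosidase of protein quality control.
AHSG (chr3:186612960-186613059, plus strand): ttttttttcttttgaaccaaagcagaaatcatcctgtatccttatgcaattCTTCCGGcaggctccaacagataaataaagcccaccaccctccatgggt
ATF6B (chr6:32128247-32128346, minus strand): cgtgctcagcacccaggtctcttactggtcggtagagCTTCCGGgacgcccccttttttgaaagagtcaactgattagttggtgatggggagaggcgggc
PPME1 (chr11:74171189-74171288, plus strand): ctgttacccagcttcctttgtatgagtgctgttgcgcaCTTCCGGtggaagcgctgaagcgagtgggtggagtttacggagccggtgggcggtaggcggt
EDEM3 (chr1:184754859-184754958, minus strand): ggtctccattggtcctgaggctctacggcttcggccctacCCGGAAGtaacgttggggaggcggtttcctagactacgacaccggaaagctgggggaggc
Their regions stood at places 30, 62, 68 and 99. The core was present in 12.8% of all promoter windows. It was present in 19.2% of the touched windows (95% Wilson interval 18.5 to 20%) and in 6.87% of the others (6.42 to 7.35%). All intervals given here cover counting error only and treat neighbouring windows or regions as independent. The core itself holds a CG, so the shares were also read within classes of CpG ratio. Among windows with a ratio from 0.8 to under 1.0, 75.8% of 1320 with the core were touched (73.5 to 78.1%), against 58.9% of those without it. Below a ratio of 0.2, 26.9% of 26 with the core were touched (13.7 to 46.1%), against 16.2%, and these intervals overlap. A match is a description of letters and not a bound site.

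**Figure D1:**
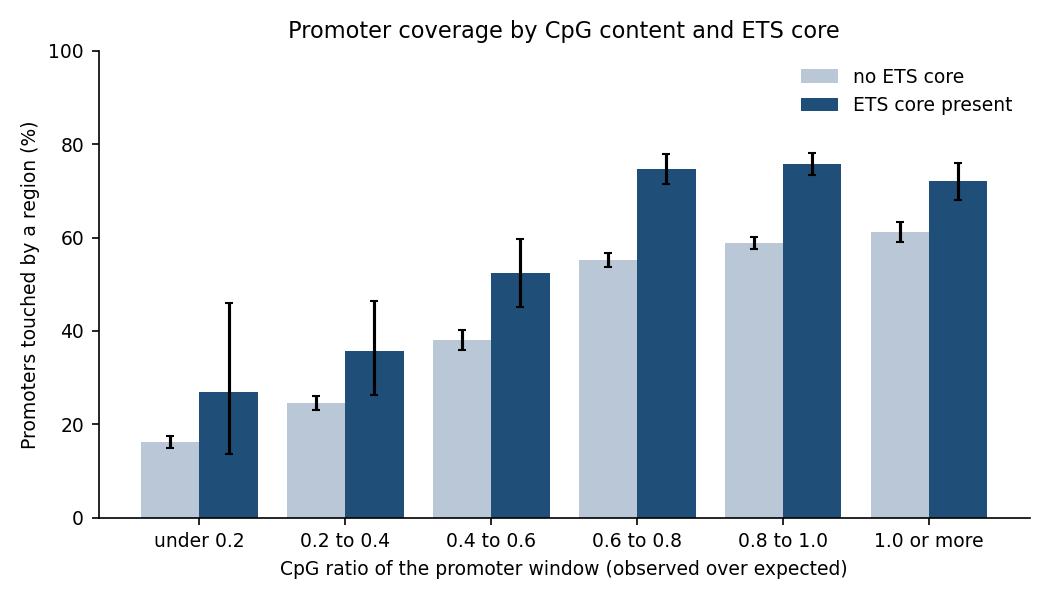
Share of promoter windows touched by a region (vertical axis, percent) in 6 classes of CpG ratio (horizontal axis), for windows without (pale) and with (dark) the ETS core. Bars carry 95% Wilson intervals. Coverage rises from 16.3% of all windows in the lowest class to 63.4% in the highest, and the dark bar is the taller in each class.

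Other promoter motifs divided in the same way. The core of NRF1, a factor of respiratory genes, was in 5.25% of touched windows and 2.30% of the others (GCGCATGC). The YY1 core AAGATGGC was in 5.44% and 1.81%, the CREB site TGACGTCA in 3.13% and 1.45%, the SP core GGGCGG in 67.2% and 46.3% and the CCAAT box in 38.8% and 30.9%. The TATA box TATAAA went the other way, with 5.94% of touched windows (5.50 to 6.41%) and 12.7% of the others (12.1 to 13.3%). Within classes of CpG ratio this direction held in each class below 0.8. Below 0.2, 10.8% of windows with the box and 17.9% without it were touched. From 0.6 to under 0.8 the shares were 51.8% (45.6 to 58.0%) and 58.7%. From 0.8 to under 1.0 both shares were 62.2%, and at 1.0 or more they were 66.7% and 63.3%. The other motifs were not split by class. The AP-1 site TGANTCA, at 4.48% and 7.68%, and the E-box CAGCTG, at 16.4% and 19.5%, were also less frequent in touched windows.

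The GGAA repeat that the fusion binds is rare in promoters. A repeat of 3 units was in 18 windows of 16 genes, and 9 of those windows were touched, a share of 50% beside 47.6% of all windows. A repeat of 4 units was in 3 windows, at RUSC2, RNASEH2C and COQ10A, and a region touched each window. At RNASEH2C the region, chr11:65721001-65722270, reached into the window but not to the repeat. The region at RUSC2 had a second value of 31, and the lowest in the list was 30. Shown are stretches of 100 bases that overlap no annotated gene, with each GGAA on either strand in capitals. The windows of RNASEH2C, COQ10A and CDH7 were touched, and those of CHRNA1 and OR10H5 were not.
RNASEH2C (chr11:65720910-65721009, minus strand): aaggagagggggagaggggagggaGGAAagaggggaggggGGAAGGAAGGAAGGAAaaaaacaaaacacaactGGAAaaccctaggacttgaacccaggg
COQ10A (chr12:56266812-56266911, plus strand): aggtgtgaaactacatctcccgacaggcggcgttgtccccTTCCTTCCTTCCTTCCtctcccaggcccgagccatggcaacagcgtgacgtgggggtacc
CDH7 (chr18:65750073-65750172, plus strand): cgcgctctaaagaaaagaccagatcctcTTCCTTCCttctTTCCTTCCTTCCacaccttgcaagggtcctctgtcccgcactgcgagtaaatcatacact
CHRNA1 (chr2:174764623-174764722, minus strand): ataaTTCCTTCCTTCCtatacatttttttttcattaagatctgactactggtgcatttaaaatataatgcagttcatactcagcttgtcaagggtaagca
OR10H5 (chr19:15787411-15787510, plus strand): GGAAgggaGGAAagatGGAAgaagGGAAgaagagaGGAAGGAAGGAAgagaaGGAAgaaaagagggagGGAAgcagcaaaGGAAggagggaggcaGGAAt
A repeat of 2 units was in 3.35% of touched windows (3.02 to 3.71%) and 3.99% of the others (3.65 to 4.36%). Repeats away from promoters were not analysed here.

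The kept regions covered 140.7 Mb. Their median width was 1440 bp, with quartiles of 1080 and 1950 bp and a range of 180 to 19810 bp. A region at a gene end, meaning within 1 kb of either end of a protein-coding gene, made up 20.3% of the list (17309 regions). A further 40% lay inside a gene, and 39.7% lay between genes at a median of 35514.5 bp from the nearest. The list was thus mostly distal: 28.6% of the regions between genes were over 100 kb from any protein-coding gene. Regions came in groups, since 21.7% lay under 500 bp from the next one, and of these close neighbours 93.2% carried an identical second value, against 5.97% of more distant neighbours.

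Row order, which follows the authors' p, ran from gene ends to distal chromatin. Among 10 equal steps of the list, 38.4% of regions lay at a gene end in the first, 21.5% in the second and 10.8% in the ninth. The authors name the first 19377 regions primary (22.7%) and the rest secondary. Only 10778 regions had an authors' p of at most 0.05 (12.6%) and 1313 a q of at most 0.05 (1.54%).

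The end of the row order does not follow this trend. At places 77937 to 85357 stand 7421 regions (8.69%) that share the authors' p of 0.951. Of these 45.3% lay at a gene end. Their median second value of 726 exceeded that of the primary regions, 602, and of the other secondary regions, 159. They held 563 of the 940 regions of 5 kb or more. A late place in this tied block therefore does not mark a low second value or a narrow region, and order within the block carries nothing.

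**Figure D2:**
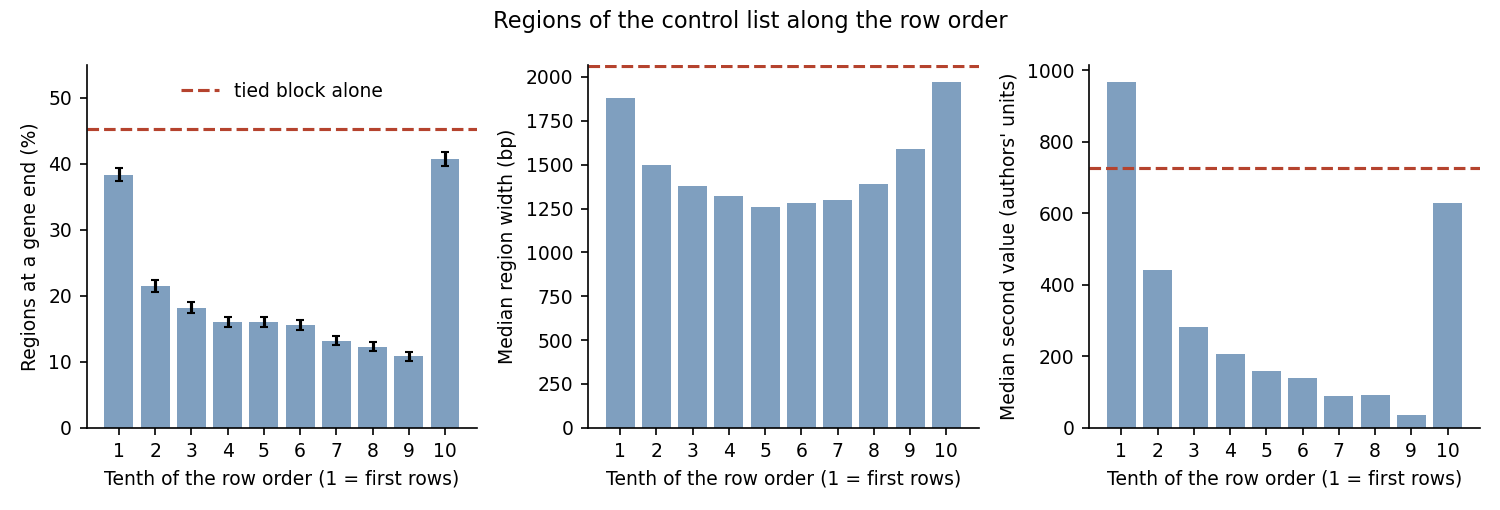
Share of regions at a gene end (left, percent, with 95% Wilson intervals), median width (centre, bp) and median second authors' value (right) in each of 10 equal steps of the row order, with the tied block alone as a dashed line. All measures fall at first and are high again in the last step, where 40.7% of regions lay at a gene end.

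The best-placed regions lay mostly at gene ends, as did 64.1% of the first 1000. Of the first 20 regions, 11 lay at a gene end, 2 inside a gene and 7 between genes, and 4 were on chromosome 8. That chromosome held 6.3% of the first 1000 regions and 5.46% of all. The first, chr8:127887961-127896800, was 8840 bp wide and lay inside the long noncoding RNA gene PVT1, 145010 bp from MYC, the nearest protein-coding gene. The second lay in the noncoding gene CCDC26, the third at ARC, an immediate early gene of neurons, and the fifth between genes nearest to ZHX2. Gene ends among the 20 included those of ANP32E (a histone chaperone), TOB2, PGK1, BPGM (a red cell glycolysis enzyme), TBCCD1 with DNAJB11, SLC2A8, WDR74, ENSA, MAP3K3 and ATG2A with PPP2R5B. Genes for spliceosomal RNAs lay under the regions at places 8 (RNU1-1) and 15 (RNU2-2, beside WDR74). The regions at FAM117A and NEMP1 were inside the gene, over an alternative start. Those nearest to NFE2L3, CHD2 and FAM43A lay between genes. Near-identical copies of the spliceosomal RNA genes exist, and how reads were placed among them was not tested.

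Among the 10 widest regions, 7 belonged to the tied block. The widest, of 19810 bp, and the ninth, of 16910 bp, both lay in PVT1, and the third, of 19470 bp, reached LRATD2 on the same arm. The others touched FAM20C, ZNF469, RBM39 (a splicing factor), LOC124905135 and PLXNB2 (a semaphorin receptor), covered a tRNA gene cluster on chromosome 1 nearest to FCGR2A, or lay in the pseudogene CNTNAP3P3. Wide primary regions included those of SPDYE12 (13150 bp), of CBX5 and HNRNPA1 (12860 bp), and of RPL3 (12420 bp). CBX5 encodes a heterochromatin protein, HNRNPA1 a splicing factor and RPL3 a ribosomal protein.

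Loci, each a protein-coding gene with 5 kb on both sides, were counted for 19821 genes. Of these 3481 had no region, 17.6%, and 12538 had a covered end, 63.3%. A primary region lay in 10549 loci, 53.2%. The median locus held 2 regions, 1106 loci held at least 10 and 189 at least 20. Number followed length: in 4 classes of equal size by length, 36.5% of the shortest loci and 4.68% of the longest held none. Of the 3481 loci without a region, 2410 had one within 50 kb.

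**Figure D3:**
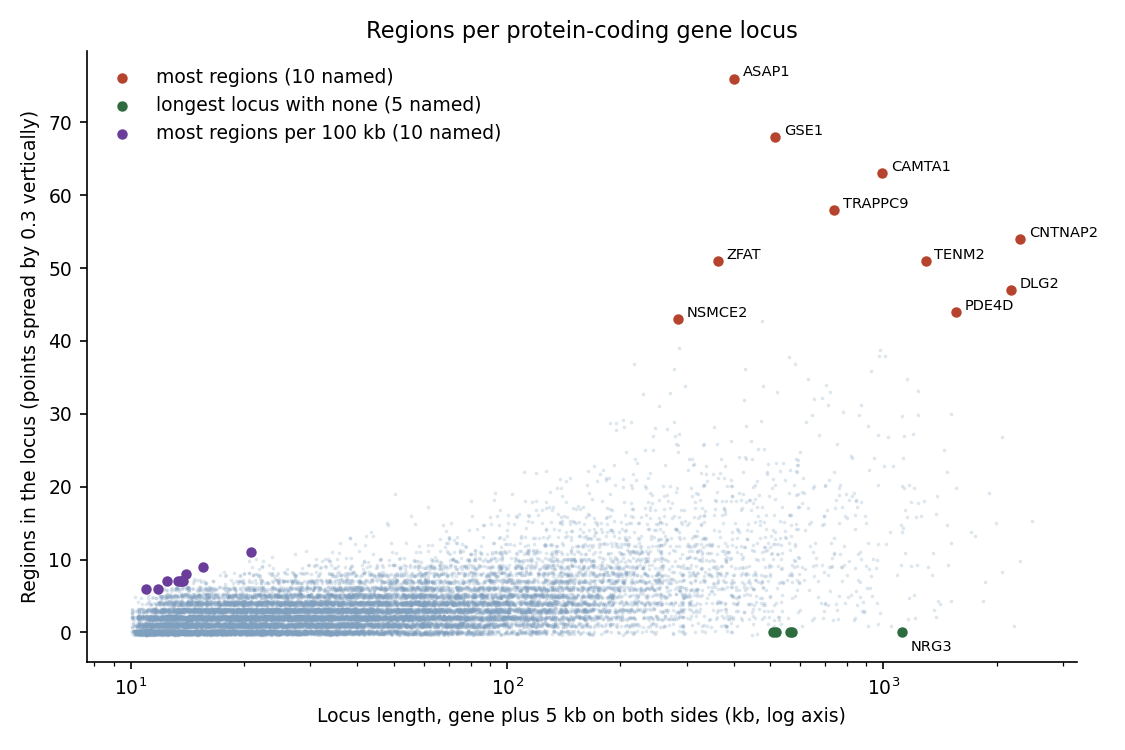
Regions per locus (vertical axis, points spread slightly for visibility) against locus length in kb (horizontal log axis), 1 point per protein-coding gene. Red marks the 10 loci with the most regions, from 43 to 76, purple the 10 with the most per 100 kb and green the 5 longest with none, of which NRG3 is named.

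ASAP1, which encodes a GTPase-activating protein of the actin cytoskeleton, held the most regions, with 76 over 51.3% of its locus. GSE1 followed with 68 and CAMTA1, a calmodulin-binding transcription activator, with 63. TRAPPC9 held 58, CNTNAP2 54, TENM2 51, ZFAT 51, DLG2 47, PDE4D 44 and NSMCE2 43, a number that RERE shares. CNTNAP2, TENM2 and DLG2 encode adhesion and scaffold proteins of neurons. These genes are over a megabase long, and 3.81%, 7.02% and 3.70% of their loci lay in regions. In bases, ASAP1 (206147), ZFAT (116422) and GSE1 (106520) came first, followed by TRAPPC9, RERE, SNTB1, CAMTA1, NSMCE2, TENM2 and CNTNAP2. Of the first 20 loci by number, 5 were on chromosome 8, and 17 were over 300 kb long. Counted by primary regions, RERE led with 18, followed by GSE1 with 15 and CAMTA1 with 14. Of the 76 regions of ASAP1, 9 were primary and 13 tied.

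The chromosome 8 loci lay in 1 stretch. From 120 Mb to just beyond ARC the list had 1948 regions, 84.7 per Mb, against 2484 regions, 20.7 per Mb, before 120 Mb. The whole chromosome had 4664, and the remaining regions lay between this stretch and the chromosome end. The density there was not computed, so the end of the stretch near ARC is not a measured border of the dense part. The stretch holds MYC, PVT1, ASAP1, ZFAT, TRAPPC9, NSMCE2 and TRIB1. When regions under 12.5 kb apart were chained, the longest chains by number were here: 91 regions over 389.7 kb at NSMCE2 and TRIB1, and 59 over 257.6 kb that began inside ASAP1 and ran beyond it. Copy number was not analysed here, and its part in this density was not tested.

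Per length of locus, small genes led. CIRBP, a cold-inducible RNA-binding protein gene, held 9 regions (57.9 per 100 kb), CFD 8 (57.2) and PPP1R14B 7 (56.2). They were followed by CCDC85B, GPR20, ATP6V0B, SLC39A7, ARHGDIA, HOXC8 and JUNB, with 6 to 11 regions each. By mean place, among loci with at least 5 regions, the first were MED24, a Mediator subunit gene, with 4 primary regions of 5, VMA22 with 4 of 5 and METTL16, an RNA methyltransferase gene, with 5 of 5. LRTOMT, RAB27A, LIG1, ARID4B, EEF1AKMT4-ECE2, SSRP1 and STAT3 came next, and none of these 10 loci held a tied region. LIG1 is the DNA ligase of replication, SSRP1 a subunit of the histone chaperone FACT and STAT3 a cytokine-activated transcription factor. A mean over places counts a tied region as late, so such a region moves its locus back in this order.

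HOX genes, which encode the positional identity of the body axis, held a region at 37 of 39 loci. The 5.13% without one stands beside 17.6% of all genes and 29.6% of all genes at these locus lengths. The HOXC cluster had 34 regions over 41.6% of its length, HOXD 21 over 32.0%, HOXA 17 over 23.7% and HOXB 20 over 17.3%. In the HOXC cluster 9 of 9 genes had a covered end. HOXB4 and HOXD1 had no region. A chain of 35 regions over 130.84 kb ran through the HOXC cluster and had the most regions of any chain outside chromosome 8.

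The genes that EWSR1::FLI1 is known to activate were among the most open lists. Of 30, 29 held a region, 22 a primary region and 26 a covered end, beside 82.4%, 53.2% and 63.3% of all genes. The median was 4 regions per locus, against 2. The highest counts were in long genes: LINGO1, a neuronal receptor component, had 37 regions, SOX6 had 30, PRKCB (a protein kinase C) had 26 and JAK1 had 25. All genes weighted to the list's locus lengths would give 14.9% without a region, against 3.33% of the list.

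NKX2-2, a homeodomain factor used in diagnosis, had 8 regions. RefSeq gives it a pair of starts, and no region touched the window of the outer one. The region over the inner start, chr20:21510961-21513940, was 2980 bp wide with a second value of 935, and 3 regions in a row carried that same value. Its single primary region, at place 12139, lay 2590 bp from the nearest start. NR0B1 had 3 regions: 2 near or over the start, of 2420 and 2310 bp with a second value of 427, and a primary one of 3780 bp that lay 3990 bp away. The region over the NR0B1 start and that over the inner NKX2-2 start were in the tied block, so the row order puts them among the last.

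Wide tied regions were listed at other targets too. LIPI, a lipase gene, had a tied region of 11970 bp over its start with a second value of 2010. GLI1, the Hedgehog effector, had a tied region of 11750 bp with a second value of 6431. STEAP1, a surface antigen gene, had a tied region of 6560 bp with 1437 that lay 1279 bp from the start. At CAV1 (caveolin) a tied region of 4320 bp and a primary one of 2150 bp shared a value of 1711. CCND1, the cyclin D1 gene, had 4 regions, the best at place 9176 with a second value of 1086. SOX2 had 5 regions and BCL11B 5, with no primary region in either.

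The remaining targets had 8 regions or fewer. IL1RAP and PAPPA had 8 each, EZH2 and HOXD13 7, KIT 6, STEAP2 5, PPP1R1A 4, and FOXM1 and FCGRT 3. KCNAB3, NPY1R and CCK had 2, and GSTM4, VRK1, ADGRA3 and ID2 had 1. DKK2, which encodes a WNT modulator that promotes bone invasion in this tumour, had none over a locus of 124512 bp.

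**Figure D4:**
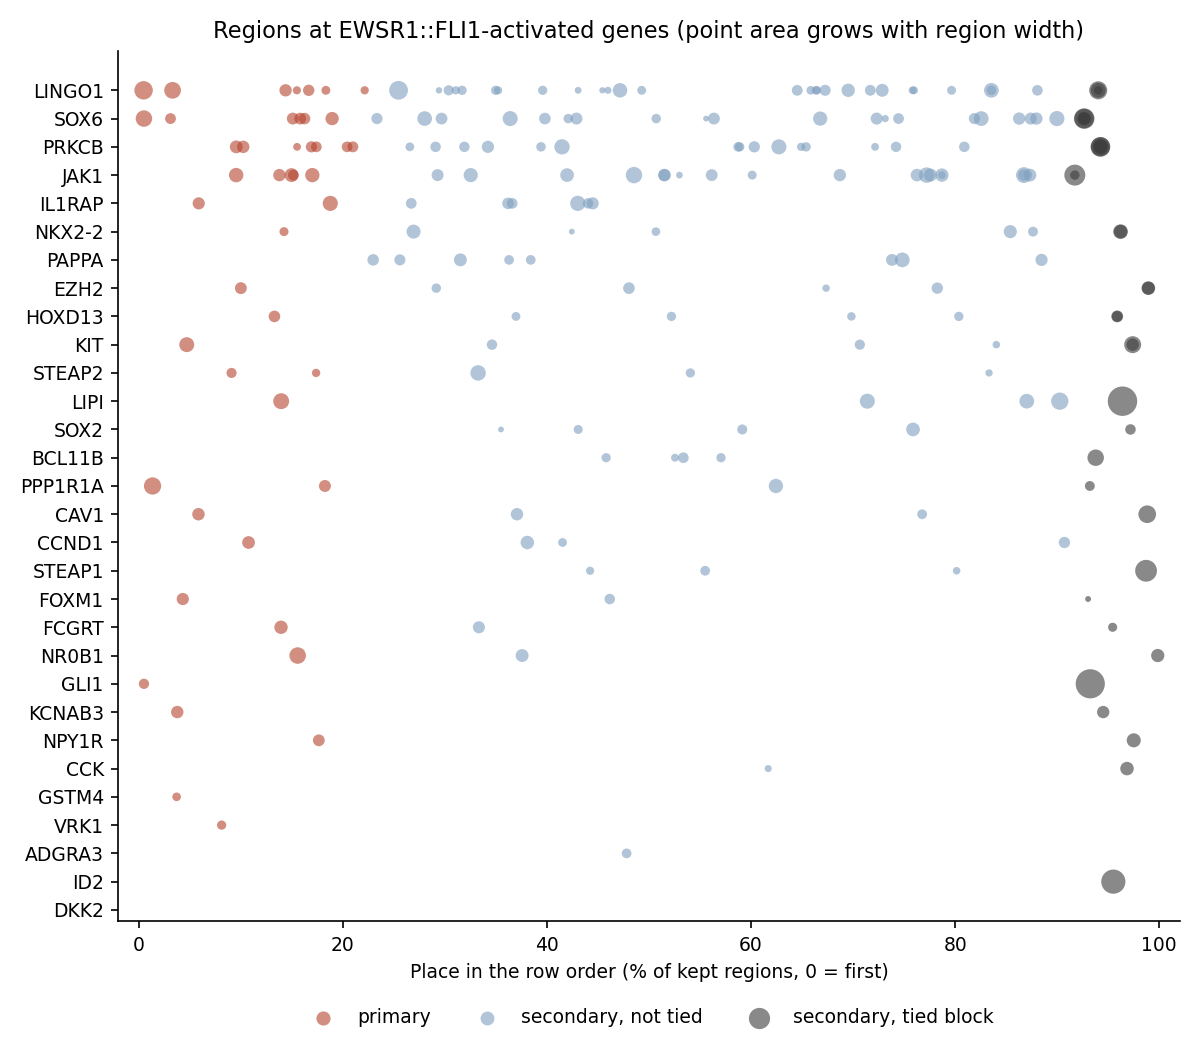
Each point is a region at 1 of 30 fusion-activated genes (rows), placed by its row order in percent of the list (horizontal axis), with area growing with width. Red marks primary, blue secondary and grey tied regions. The widest points, at LIPI and GLI1, are grey and stand at the far right, and DKK2 has no point.

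The fusion partners differed from each other. EWSR1 had 7 regions, with a primary region of 840 bp over its start at place 2283 and a second value of 1257. FLI1 had 3 regions, of which 2 lay inside the gene and the best, at place 15653, beyond its far end, and neither end was covered. The list of fusion partners and ETS genes includes EWSR1 and does not hold every ETS gene. In it 17 of 18 loci held a region, leaving 5.56% without one beside 10.9% of all genes at these lengths. ETV6, a blood cell repressor, had 11 and ELF4 had 9. ERG, the fusion partner in a minority of Ewing tumours, had 3 with no covered end. ETS1 had none over 138794 bp.

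Of 15 surface and diagnostic genes of Ewing sarcoma, 14 held a region, beside 82.4% of all genes. These loci are long, with a median of 143.65 kb, and the 6.67% without a region is close to the 7.70% of all genes at such lengths. IGF1R, a growth factor receptor, had 16 and NCAM1 had 9. CD276, an immune checkpoint ligand, had its best region at place 222. CD99, the standard surface marker of this tumour, had none. Its locus was touched by a left-out region, as were 11 of the 12 loci without a kept region among the 16 genes from the tip of the short arm of X to CD99. The list therefore does not measure CD99.

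Genes of mesenchymal cells, many of which the fusion represses, were near the background: 30 of 33 held a region, leaving 9.09% without one beside 15.6% of all genes at these lengths, and 21 had a covered end, 63.6% beside 63.3% of all genes. COL5A1, a fibrillar collagen, had 20 regions, PDGFRB 10, and ACTA2 9. VIM (vimentin) had 2, neither primary. ZEB1, an inducer of mesenchymal change, CD44 and POSTN had none. Of neural crest genes 18 of 20 held a region, leaving 10% without one beside 20.5% of all genes at these lengths. TFAP2A had 7 and NGFR 5. With primary regions only, 51.5% of the mesenchymal and 60% of the neural crest loci had none, beside 46.8% of all loci.

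Cell cycle genes were the most completely marked, with 31 of 31 loci holding a region and 31 of 31 ends covered. The shares of all genes were 82.4% and 63.3%. CDK6 had 13 regions, CCND3 9 and CDKN1B 6. E2F3 had its best region at place 88 and TOP2A, the topoisomerase of mitosis, at place 420. Housekeeping genes followed with 28 of 30, the 2 without being GUSB and CHMP2A, of which CHMP2A lies under a left-out region. At cell cycle and housekeeping lengths, 16.2% and 20.2% of all genes would have none. Of the 15 NuRD genes, the complex that holds CHD4, 14 had a region: CHD5 had 10, MTA2 7 and CHD4 itself 6. CDK2AP1 had none. That left 6.67% without a region (interval 1.19 to 29.8%), beside 11.4% of all genes at these lengths. The interval includes that share, so the NuRD list was not set apart from the background. Ribosomal protein genes held a region at 82 of 84 loci and mitochondrial ribosomal protein genes at 76 of 77. That left 2.38% and 1.30% without one, beside 29.1% and 24.1% of all genes at these lengths.

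Most lists of lineages far from the tumour lacked regions more often than all genes, of which 17.6% had none. All genes at the lengths of the pluripotency, skin and germline lists would give 19.8%, 25.4% and 21.1%. Pluripotency genes had none at 10 of 17 loci (58.8%, interval 36.0 to 78.4%) and a median of 0 regions, against 2 for all genes. Among them were NANOG, PRDM14, ZFP42, DPPA3 and TFCP2L1. LIN28B, with 9 regions, and ESRRB, with 11, were exceptions. POU5F1, the central factor of the state, had 1 region, which reached 194 bases into the edge of its locus, and its ends were not covered. Skin and melanocyte genes had none at 10 of 17 (58.8%) and also a median of 0, including TYR, TYRP1, FLG, IVL and KRT1. OCA2 had 10. Germline genes had none at 11 of 26 (42.3%), among them DDX4, MAEL, SYCP3 and ZP2. DMRT1 had 9 and TEX14 had a region at place 100.

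Muscle genes were split. At the lengths of the cardiac and skeletal lists, all genes would give 22.4% and 18.1% without a region. Cardiac genes had none at 7 of 20 (35.0%), including MYH7, ACTC1, NKX2-5 and HAND1, while RYR2 had 16 regions. Skeletal muscle genes had none at 6 of 25 (24.0%): the myosins MYH1, MYH4 and MYH8, the troponin TNNT3, and the regulators MYF5 and MYF6. PAX7, a factor of muscle stem cells reported to be expressed in this tumour, had 9. Only 8 of 25 skeletal and 6 of 20 cardiac genes had a covered end, beside 63.3% of all genes.

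Blood and vessel genes were in between. At the lengths of the myeloid, lymphoid and endothelial lists, all genes would give 24.1%, 16.1% and 15.7% without a region. Of 31 myeloid, erythroid and blood stem cell genes 10 had none (32.3%), among them GATA1, TAL1, ALAS2, CD33 and CD163. EPOR, the erythropoietin receptor gene, had a region at place 152. Lymphoid genes were near the background, with none at 5 of 26 (19.2%, interval 8.51 to 37.9%), beside 17.6% of all genes. CD28, CD3D and MS4A1 had none, and PAX5 had 9. Endothelial genes had none at 7 of 23 (30.4%), including KDR, TIE1, ROBO4 and CLDN5. NOS3, the endothelial nitric oxide synthase gene, had 10.

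Epithelial and organ genes resembled them. At the lengths of these lists, in the order below, all genes would give 19.4%, 19.8%, 25.8% and 18.4% without a region. Epithelial genes had none at 8 of 28 (28.6%), including KRT5, CLDN3, CLDN7, EHF and OVOL1, while TP63 had 11 and KRT8 had 9. Liver and gut genes had none at 9 of 28 (32.1%), including ALB, TTR, FABP1, SERPINA1 and FOXA2. CPS1, the entry enzyme of the urea cycle, had 12. Pancreas, kidney and lung genes had none at 8 of 24 (33.3%), including PDX1, PTF1A, UMOD and SFTPB. PAX8 had 10. Bone, cartilage and fat genes had none at 6 of 23 (26.1%), including SOX9, PPARG and FABP4, and SOX5 had 14 and RUNX2 8.

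Neural genes mixed many regions with few covered ends, but few covered ends were not particular to them. All genes at the lengths of the neuronal, glial and sensory lists would give 11.9%, 16.8% and 15.3% without a region. Of 40 neuronal genes, with a median of 3 regions, 8 had none (20%), among them the receptor gene GRIA2, GAD2, STMN2, NEFM and the proneural NEUROD2, NEUROG1 and NEUROG2. RBFOX3, a splicing factor of mature neurons, had 24 regions, NRXN2 18, SYT1 17 and RBFOX1 15. Yet 17 of 40 had a covered end (42.5%), beside 63.1% of all genes weighted to the same locus lengths. In the lists of lineages far from the tumour this share ran from 11.8% (pluripotency) to 46.4% (epithelial). It was 34.6% for lymphoid and 32.1% for liver and gut genes. Glial genes had none at 4 of 18 (22.2%), among them OLIG1, OLIG2 and AQP4. Yet 13 of 18 held a primary region (72.2%, beside 53.2% of all genes), so with primary regions only the glial list had the smaller share without one, 27.8% beside 46.8%. Sensory genes had none at 3 of 18 (16.7%): CRX, OPN1SW and ATOH1.

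**Figure D5:**
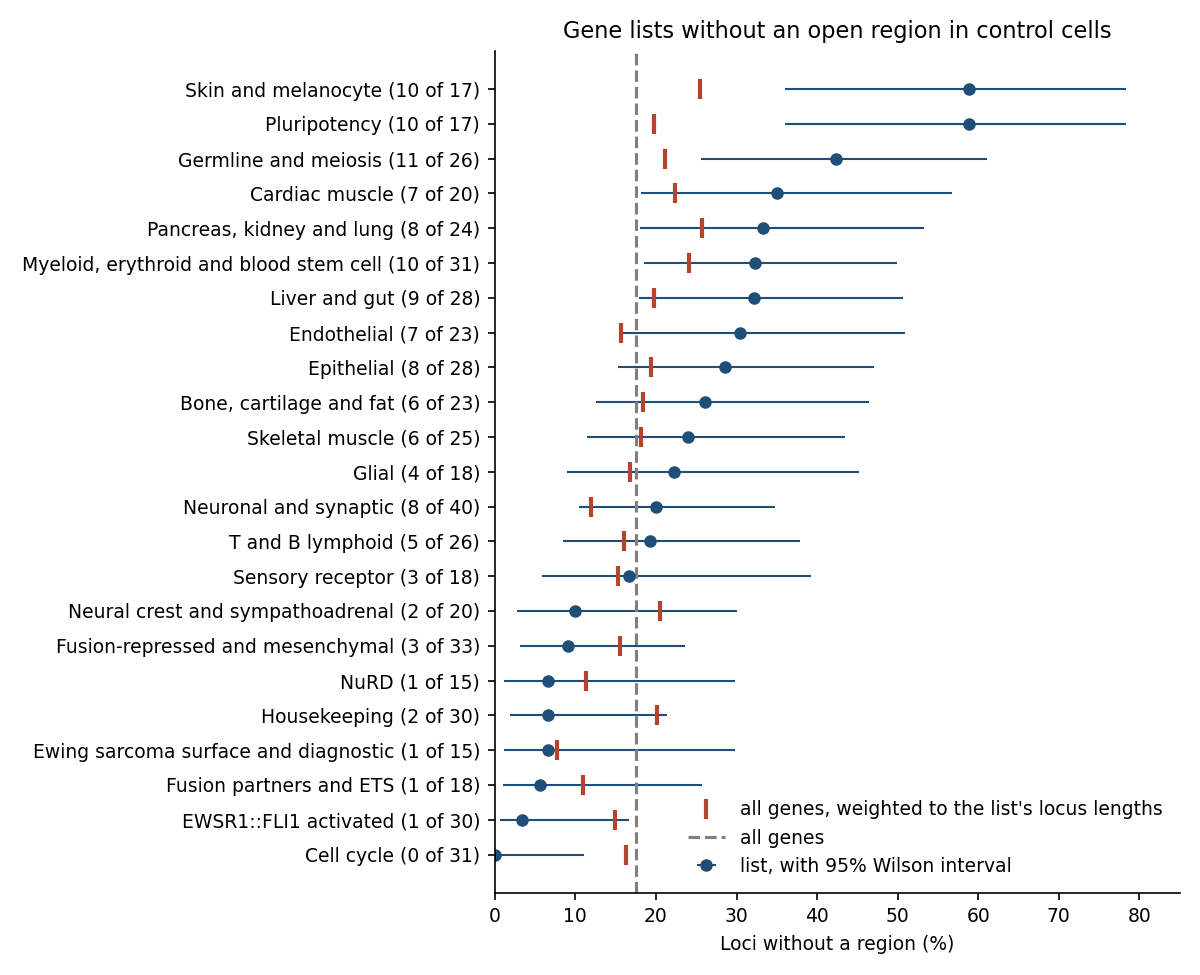
Share of loci without a region (horizontal axis, percent) in 23 gene lists (rows, with counts), with 95% Wilson intervals. The dashed line is the 17.6% of all genes and red ticks are all genes weighted to each list's locus lengths. Lists run from cell cycle, with 0 of 31, to pluripotency and skin, with 10 of 17 each.

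In all, 14 of 23 lists had a larger share without a region than all genes, and many intervals include 17.6%. The number ranged from 10 to 16 over the 10 other settings tried, and 13 lists stayed on their side in every one. No list was tested against the rest.

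Several tandem gene families of other tissues had few regions. Of 389 olfactory receptor genes 346 had none (88.9%, where all genes weighted to their locus lengths would give 41.7%). None were listed at 76 of 94 keratin-associated protein genes, 32 of 39 beta-defensin genes, 26 of 30 late cornified envelope and small proline-rich genes, and 20 of 24 bitter taste receptor genes. These loci are short, and all genes at their lengths would give 61.5%, 32.2%, 50.4% and 54.7%, against the families' own 80.9%, 82.1%, 86.7% and 83.3%. Interferon alpha genes, also in tandem, had none at 8 of 13, which is the 61.5% of all genes at their lengths. MAGE-A and GAGE antigens had none at 23 of 24, 95.8% beside 25.1% of all genes at their lengths. For 12 of those 23 a left-out region touched the locus, as for 14 of the 32 beta-defensins and 10 of the 346 olfactory receptors. Short loci were not always empty: replication-dependent histone genes had none at 11 of 69 (15.9%), where all genes weighted to their lengths would give 57.3%. Collagens had none at 1 of 44 (COL28A1), protocadherins at 3 of 65 and PAX genes at 1 of 9 (PAX4), where all genes at their lengths would give 6.29%, 12% and 11.8%. SOX genes had none at 6 of 19 (SOX1, SOX7, SOX9, SOX14, SOX17 and SOX21), 31.6% beside 26.2%.

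The longest runs of neighbouring genes without a region were of 2 kinds. The 38 genes from OR5D13 to OR5AK2 on chromosome 11, of which 37 are olfactory receptors, and the 22 from LCE2D to SPRR1B on chromosome 1, in the epidermal differentiation cluster, were not touched by any left-out region. In the longest run, 50 genes from DEFA4 to CLDN23 on chromosome 8, left-out regions touched 43 loci. They touched 19 of 23 loci from HMX1 to DEFB131A on chromosome 4. In the run of 23 genes from NUPR2 to ZNF679, which spans the chromosome 7 centromere, they touched 1. Left-out regions covered 157.1 Mb with a maximum width of 18670.9 kb, and touched 303 of all 3481 loci without a region, so these 303 loci cannot be read as lacking open chromatin.

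Several of the longest loci without a region belong to neuronal genes. NRG3, a neuregulin gene of 1121986 bp with its flanks, came first, followed by UNC5D (a netrin receptor, 571066 bp), TAFA1, SLC4A4 (a bicarbonate transporter), AFF2, MYRIP, RANBP17, KCNH8 (a potassium channel), FMN2 and RTL4. TAFA1, MYRIP and KCNH8 were touched by left-out regions.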

How the data were processed

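ATAC-seq was run on 3 groups of 3 samples, and only the control group's region list was analysed. The submitters' processing notes name, with no order or role, deepTools 3.2.1, SAMtools 1.9, BWA, Trimmomatic 0.36 and FastQC 0.11.7, and the builds GRCh38 and dm6 (Drosophila). The deposited name carries the tool name ChIP-R, which combines replicates. For the peak caller, the shift for Tn5 and the use of the spike-in: not given in the sources used here. Of the deposited columns, column 7 (the second value) is a score of unknown unit, and the p-value and q-value columns are the authors' own on a linear scale. The score in column 5 was not used. Rows left out by column 7 or width were counted separately, since they touch loci that then count as without a region.

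Python 3.11.15, pandas 2.3.3, numpy 2.4.6, scipy 1.17.1 and matplotlib 3.10.9 were used. A region counted in a locus when it shared at least 1 base with the gene or its 5 kb flanks. Genes, 19821 of the 19974 in the RefSeq GRCh38.p14 table, excluded 153 on scaffolds. Promoter windows covered no gene of chromosome 8. Intervals are Wilson 95% intervals. Counting of regions and bases in intervals was tested on simulated regions. Without replicates no test between samples was run, and depth is unknown.

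Members, lists and sequences were chosen with earlier results of these data known. Named loci were the first 10 by regions, by regions per 100 kb, by bases, by mean place and by length without a region, the 10 widest and first 20 regions, the 5 longest runs, and, per list, up to 4 genes with the most regions and up to 8 with none; a few of these are not reported here. CD276, E2F3, TOP2A, EPOR, VIM and POU5F1, the wide primary regions and the printed sequences were chosen after their values were seen. Symbols were matched by name; 1 of the 18 skin genes did not match. Alternatives were the region filter, the overlap rule, the flanks, the end window, and 3 added after seeing the data: primary regions only, no tied block, and the scaffold genes.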

Additional observations from a re-analysis of the deposited data

How the results depend on the processing

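No paired analysis was possible because the control group has 1 list with no replicate columns, and no replicate could be left out in turn. With an authors' p of at most 0.05 (10778 regions, median width 1790 bp), 61.4% of loci had no region, 22.9% of genes had a covered end, 35.1% of regions lay at a gene end and 17.9% of promoters were touched, of which 24.7% held the ETS core and 5.19% the TATA box; 3 of the 10 leading loci remained. With the first 20000 regions (1620 bp) the first 3 values were 46.0%, 32.1% and 28.2%, and 4 leading loci remained. With primary regions only (19377, 1620 bp) they were 46.8%, 31.6% and 28.6%, promoters 23.3%, ETS core 24.0%, TATA box 5.31%, and 5 leading loci remained. Without the tied block the covered ends were 59.4%, regions at ends 17.9%, promoters 38.0%, ETS core 20.1% and width 1410 bp. These 2 rules, and the scaffold genes, were added after seeing the data.

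Loci without a region came to 16% with all regions kept, 18.4% by region centre, 25.4% for the gene alone and 5.4% with 50 kb flanks. Covered ends came to 64.8% with all regions kept, 51.9% by centre, 68.0% and 58.7% with windows of 2 kb and 500 bp, 61.6% for starts only and 62.0% with a width limit of 5 kb. Regions at ends came to 13.6% by centre, 24.8% and 16.7% with the same windows, 15.8% for starts and 19.4% after joining neighbours under 500 bp apart (median width 1730 bp). Promoters touched over at least 50% of their length made up 43.4%. Depth is unknown, so a locus without a region may lie below what the list could show.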

Other observations

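MicroRNA genes were looked at after the data had been seen, with 31 of 38 listed hairpins matched in RefSeq. Of 1558 hairpins on GRCh38.p14, 44.0% had a region within 5 kb and 14.8% were touched by one. MIR21 had 2 regions within 5 kb, the best at place 602, and MIR200C with MIR141, an epithelial pair, had 2 with the best at place 1368. MIR9-1, a neural gene, had 1, and MIR9-2 and MIR9-3 had 2 each. The myeloid MIR223, the epithelial MIR205 and MIR203A and the embryonic MIR302A had none. Other members of such classes differed: the blood cell MIR142, the embryonic MIR371A (at place 3072), the liver MIR122 and the endothelial MIR126 had 1 region each. The mature RNAs are shown 5′ to 3′ with the seed, bases 2 to 8, in capitals, to show which seeds belong to genes with and without a region. With a region:
hsa-miR-21-5p: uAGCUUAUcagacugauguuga
hsa-miR-200c-3p: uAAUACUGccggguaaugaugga
hsa-miR-141-3p: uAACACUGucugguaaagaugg
hsa-miR-9-5p: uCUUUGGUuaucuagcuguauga
Without a region:
hsa-miR-205-5p: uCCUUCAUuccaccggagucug
hsa-miR-302a-3p: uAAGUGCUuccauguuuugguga
hsa-miR-223-3p: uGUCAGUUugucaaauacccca
No seed is shared among these.

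Promoters of long noncoding RNA genes were touched less often than those of coding genes. A region touched 23.7% of 12806 lncRNA windows. Those that start within 1 kb of a coding start were touched at 58.5% of 2353, and the others at 15.9% of 10453.

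Chromosomes differed in density. The X chromosome had 13.3 regions per Mb and chromosome 19 had 59.6, and 39.2% of loci on X had no region against 8.20% on chromosome 22. Per gene, X and chromosome 19 were alike, with 2.44 and 2.47 regions.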
